A study of Lytechinus variegatus with 64 samples.

Results

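The mouth-restricted genes of the sea urchin Lytechinus variegatus were the 66 genes, of 25887 in the count table, whose transcripts stood far higher in adult mouth than in any other replicated adult sample type. Each count was divided by the total of its library and expressed as CPM, the count it would have at a total of 1000000. A gene was a member when its mean over the mouth libraries was at least 10 CPM, that mean was at least 4 times the mean of each other type with 0.5 CPM added to both, and every mouth library lay above the mean of every other type. The same mouth values chose the genes, so levels in mouth and the contrast of mouth with other types are given as a description, with no test. The 66 members were 0.255% of the genes in the table and 0.774% of the 8524 genes that averaged 10 CPM or more in mouth.

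In a sea urchin the mouth opens at the centre of the underside, where the tips of the teeth project. The teeth are held by Aristotle's lantern, a jaw apparatus of skeletal pieces moved by its own muscles. A soft skin, the peristomial membrane, surrounds the opening, and the esophagus rises from the mouth through the middle of the lantern to the gut. Epithelia around a mouth are commonly rich in gland cells and sensory cells.

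All animals were wild type, with no allele, agent or treatment in any group. Adult mouth, rectum and peristomial membrane had 3 libraries each. Adult esophagus, gut, lantern muscle, tube foot, interambulacral plates, radial nerve, radial canal, axial gland, testis, ovary and eggs had 4 each. Coelomic fluid, 4 colours of spine and a stage 1 ovary had 1 adult library each, and juvenile gonads at 4.5 months after fertilization gave 5 further libraries. The labels state neither the age of the adults nor that replicates were taken from different animals. Each p-value therefore reflects the spread among the libraries at hand, and that spread may be technical.

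Library totals ran from 13113913 to 59521125 counts, and the mouth libraries held 22249244, 30828580 and 24354246. The labels give no further account of what was dissected as mouth. The table names genes by locus identifiers without product names, so neither the mouth label nor any other tissue label could be checked against marker genes, and no role is given here for any member. By RefSeq biotype, 63 members were protein coding and 3 were pseudogenes, LOC121409413, LOC121425918 and LOC121426948. CPM values are not per length and are not compared between genes as abundance of transcripts. In bulk RNA, fewer cells of a type and less RNA per cell cannot be told apart. Library 3 of lantern muscle stood apart from the other lantern muscle libraries in these genes, and the counts of calls in lantern muscle and the fold changes named there are given with and without it.

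The members took a large part of all mouth RNA counts, and a few of them took most of it. Of all counts, 9.44%, 10.01% and 15.7% in mouth replicates 1, 2 and 3 fell on the 66 members, a mean of 11.7% ± 3.46 (SD, n = 3). The mean over mouth was at least 10589.9 CPM for the 5 leading members, between 1000 CPM and the 5585 CPM of LOC121425879 for 10, between 100 and 1000 CPM for 13 and under 100 CPM for the remaining 38. The 2 leading genes held 36.9% of the members' mouth CPM, the leading 5 held 71.3% and the leading 20 held 96.9%.

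LOC121417283 took the most reads, with 27675, 17206 and 33415 CPM in mouth replicates 1, 2 and 3. LOC121417672 gave 17040, 11632 and 22738 CPM in the same libraries. LOC121423355 gave 10131, 6937 and 14703 CPM. In each of these genes replicate 2 was the lowest library and replicate 3 the highest. LOC121428384 gave 7166, 21786 and 21426 CPM in replicates 1, 2 and 3, and LOC121431271 gave 4879, 15428 and 18557 CPM. Here replicate 1 was the lowest and replicates 2 and 3 were close together, so the 5 leading genes did not share an order of the libraries.

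Outside mouth the share of counts was small. In esophagus replicates 1 to 4 it was 0.588%, 1.07%, 0.243% and 0.316%, a mean of 0.554% ± 0.374 (SD, n = 4). In peristomial membrane replicates 1 to 3 it was 0.121%, 0.0392% and 0.0913%. In lantern muscle replicates 1 to 4 it was 0.00785%, 0.0498%, 0.265% and 0.0200%, so that the third library reached the range of the esophagus and the first did not reach 0.01%. The 39 libraries of the 10 remaining replicated types lay between 0.00112% and 0.0922%, with a median of 0.00829%. Among them, tube foot replicates 1 to 4 gave 0.0342%, 0.0560%, 0.0610% and 0.0922%. These overlapped with the range of peristomial membrane and lay above lantern muscle replicates 1 and 4. Every esophagus library lay above all libraries of those 10 types. Counting intervals (95%, exact binomial) were at most 0.0145 percentage points wide on either side of each share and cover counting error only.

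**Figure D1:**
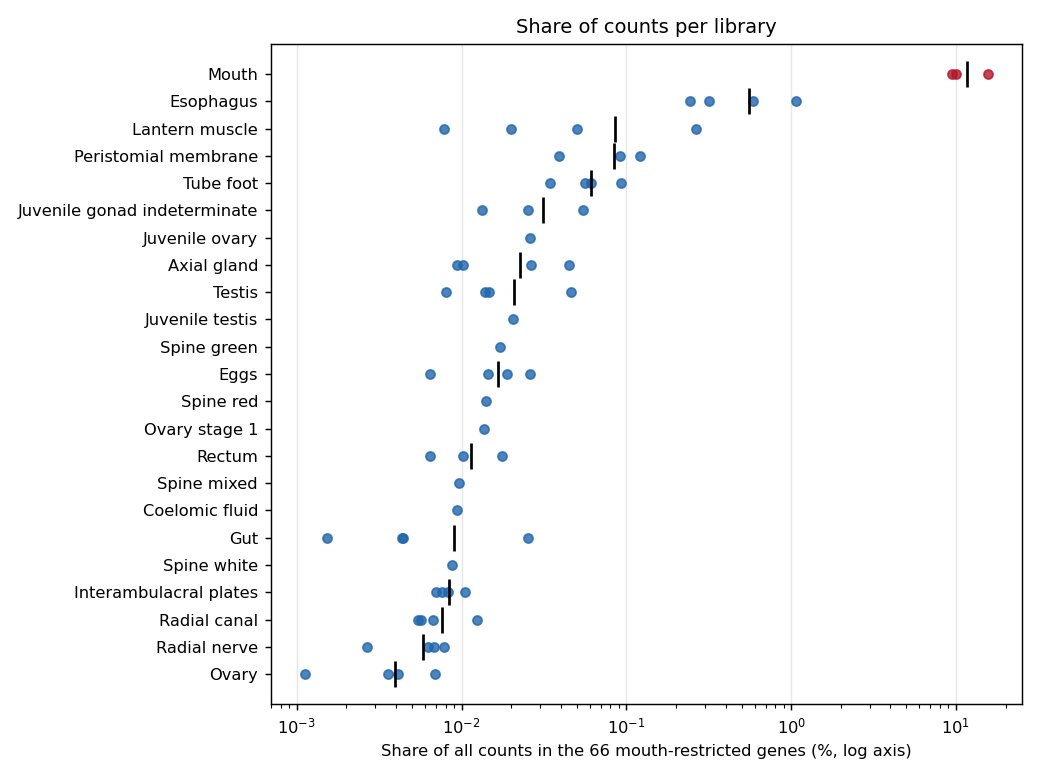
Share of all counts in the 66 mouth-restricted genes (percent, log axis) for each library, by sample type. Points are libraries and bars mark the mean of types with more than 1 library. The 3 mouth libraries sit between 9.44% and 15.7%, the 4 esophagus libraries between 0.243% and 1.07%, and lantern muscle replicate 3, at 0.265%, lies apart from its group.

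The members differed widely in how far they were restricted. The ratio of the mouth mean to the next highest type mean, with 0.5 CPM added to both, had a median of 9.15 and ran from 4.09 to 485. It was at least 100 for 6 members, between 10 and 100 for 24 and under 10 for 36. Every mouth library lay above every single library of the other 13 types for 55 members, and for 11 it did not.

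LOC121423355 had the highest ratio. Its mouth mean was 10589.9 ± 3903 CPM (SD, n = 3), and eggs came next with 21.3 CPM. The eggs value rested on a single library, with 2.76, 82.1, 0.0576 and 0.527 CPM in egg replicates 1 to 4. LOC121412174, the next by ratio, gave 109, 430 and 564 CPM in mouth replicates 1 to 3 and a mean of 1.34 CPM in eggs. LOC121429296 gave 3205, 1535 and 4892 CPM in mouth and averaged 21.7 ± 18.9 CPM in esophagus (SD, n = 4). For LOC121412194 the mouth values were 147, 456 and 493 CPM, and the next mean was 2.77 CPM in lantern muscle. LOC121428985 and LOC121418462 completed the 6, with ratios of 110 and 109. Their mouth means were 381 ± 250 and 556 ± 418 CPM (SD, n = 3 each), so that among these 6 genes the level in mouth spanned from 365 to 10589.9 CPM.

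The least restricted members lay just inside the threshold. LOC121425171, LOC121412899 and LOC121426760 had ratios of 4.09, 4.10 and 4.17. Just outside it were LOC121408253, LOC121430177 and LOC121432217, with 3.95, 3.89 and 3.86. LOC121432217 averaged 417 CPM in mouth and 108 CPM in esophagus, so the genes nearest to the threshold were not all of low level.

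The esophagus held the next highest mean for 28 of the 66 members. The peristomial membrane did so for 10, testis for 9, tube foot for 4, and eggs, lantern muscle, radial canal and axial gland for 3 each. Ovary followed mouth for 2 members and radial nerve for 1. Among the 15 members at 1000 CPM or more in mouth, esophagus came next for 11, peristomial membrane for 2, and eggs and tube foot for 1 each. That next mean was at least 100 CPM for 12 members, and it was below 1 CPM for 4.

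**Figure D2:**
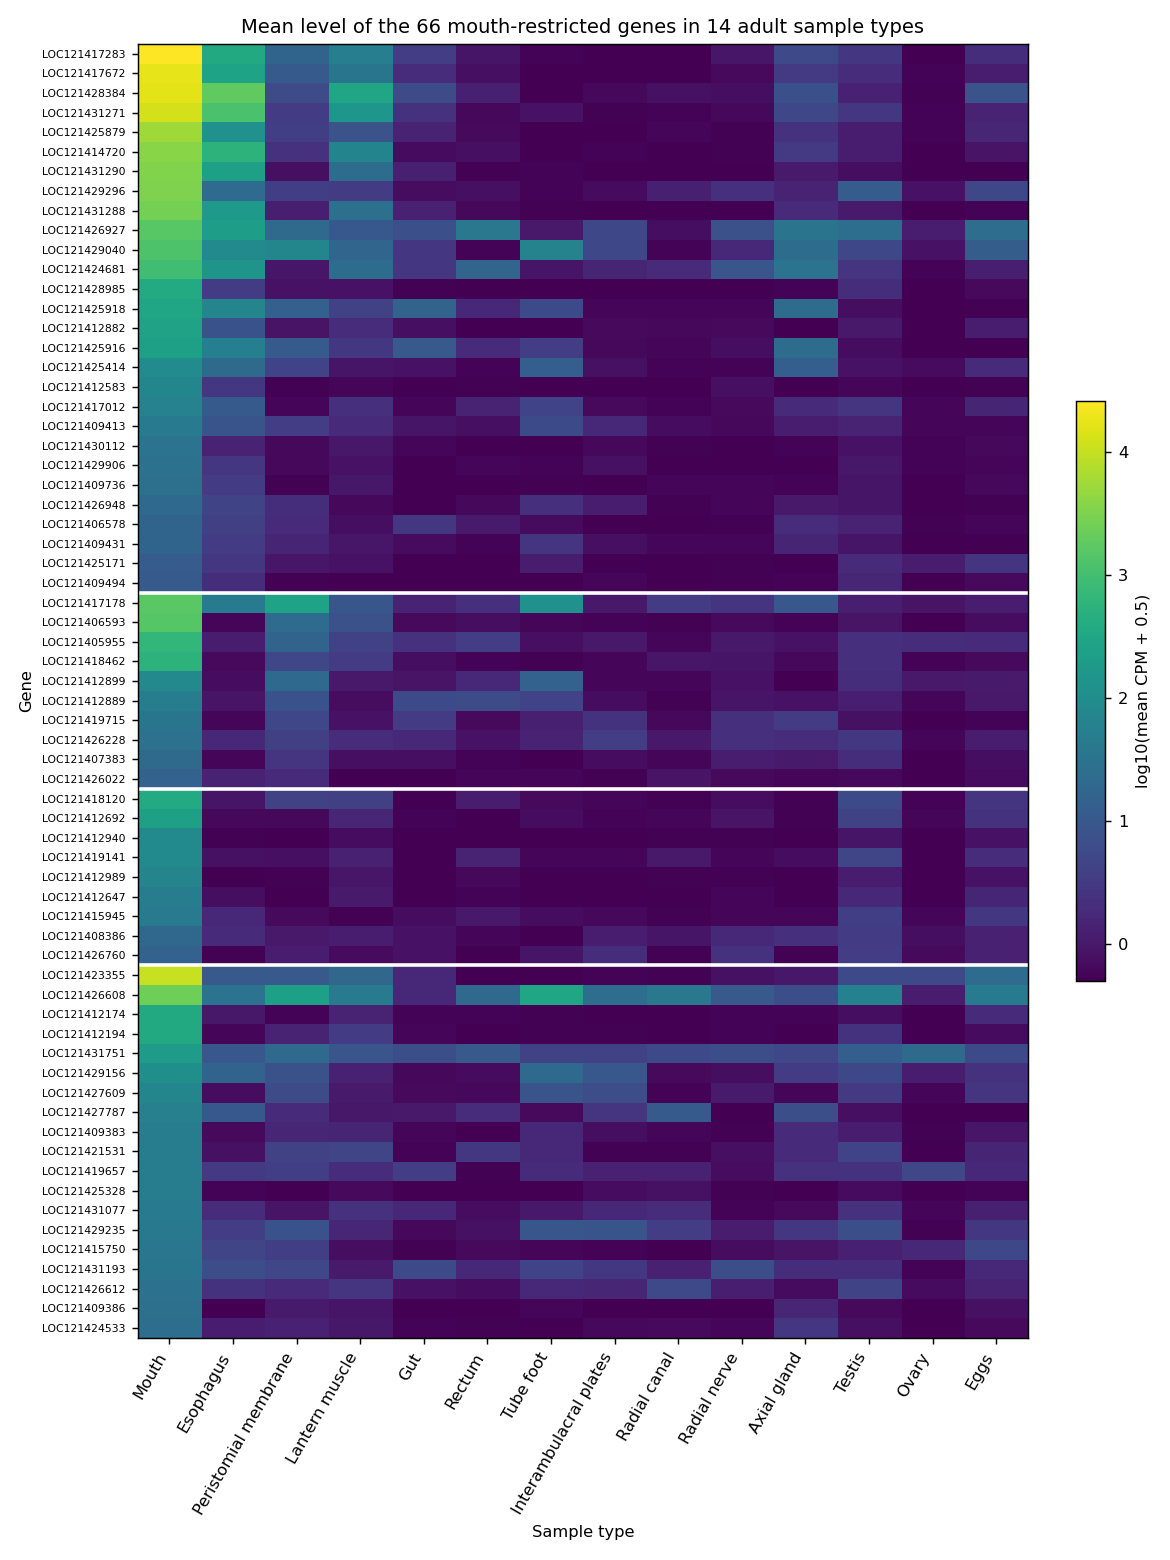
Mean level of each member (rows) in the 14 replicated adult types (columns), with colour giving log10(mean CPM + 0.5). White lines part the members with esophagus, peristomial membrane, testis or another type next, each block ordered by mouth mean. Mouth is the highest column for all 66 genes by the rule, and esophagus is the next highest for 28 of them.

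The members varied more between mouth libraries than other genes of mouth did. The highest mouth library was a median of 3.45 times the lowest over the 66 members, against 1.83 times over the other 8458 genes at 10 CPM or more in mouth. LOC121417178 had the most even levels, with 1591, 1515 and 1784 CPM in mouth replicates 1, 2 and 3. LOC121409386 had the widest spread, with 62.4, 1.17 and 18.5 CPM, a 53.5-fold range. Replicate 2 was the lowest library for 40 members, or 60.6%, and for 36.3% of the other genes. Replicate 3 was the highest for 44 members. These are descriptions, because the rule used the same values.

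The members with peristomial membrane next shared their lowest mouth library. All 10 of them were lowest in mouth replicate 2, and replicate 1 exceeded replicate 2 by 1.05 to 19.99 times (median 4.25). LOC121405955 gave 1352, 67.6 and 603 CPM in mouth replicates 1, 2 and 3. LOC121406593 gave 2457, 356 and 1642 CPM, and LOC121418462 gave 987, 153 and 529 CPM. Replicate 1 was the highest in each of these 3 genes.

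Members with esophagus next did not share a lowest mouth library. Replicate 1 was the lowest library for 9 of the 28, replicate 2 for 15 and replicate 3 for 4. At 1000 CPM or more, the 5 members lowest in replicate 1 were LOC121428384, LOC121431271, LOC121414720, LOC121431290 and LOC121431288, and each had esophagus as the next type. LOC121431290 gave 728, 5093 and 4352 CPM in mouth replicates 1 to 3. LOC121431288 gave 362, 3776 and 4111 CPM, and LOC121414720 gave 1506, 3904 and 5772 CPM. In all 5, replicate 1 lay below replicates 2 and 3. LOC121425879, also with esophagus next, had the other order, with 5693, 2555 and 8508 CPM.

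**Figure D3:**
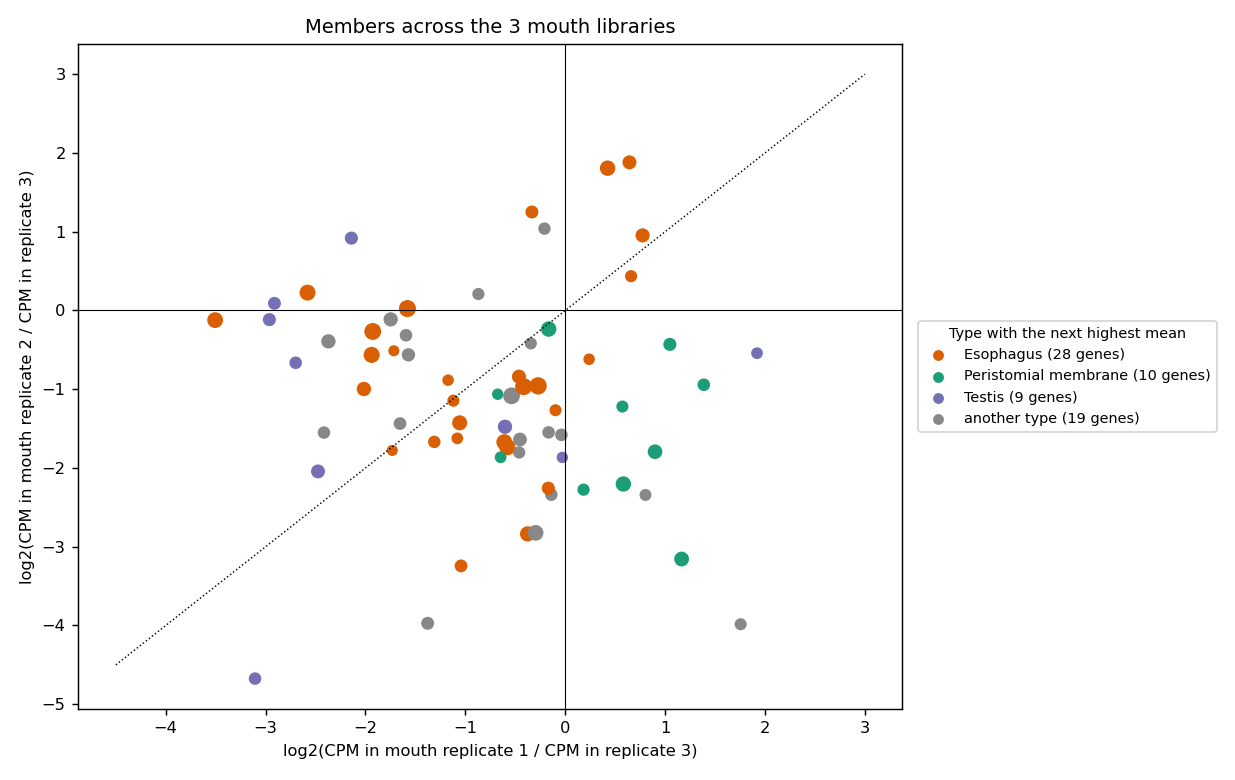
Log2 ratio of mouth replicate 1 to replicate 3 (horizontal axis) and of replicate 2 to replicate 3 (vertical axis) for the 66 members, coloured by the type with the next highest mean; larger points have a higher mouth mean. Points under the dotted line were lower in replicate 2 than in replicate 1, as all 10 members with peristomial membrane next were, while 5 of the 9 with testis next were lowest in replicate 1.

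Which of the other types carried these genes was not fixed by the rule, and 3 of them were tested without any mouth library. The 50 libraries of the 13 other replicated types were fitted together with edgeR's quasi-likelihood test, and esophagus, peristomial membrane and lantern muscle, which adjoin the mouth, were each set against the mean of the 12 other types. Calls required a log2 fold change of at least 1 in size and a p under 0.05 after Benjamini-Hochberg adjustment over all 23341 genes tested. All 66 members passed the filter on low counts. These 3 comparisons share libraries, since each type is part of the rest in the other comparisons. Tube foot, testis and the remaining types were not tested in this way, so the comparisons do not rank the 13 types.

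In esophagus, 40 of the 66 members were called higher, where 12.9% of all genes tested were. No member was called lower, where 4.4% of all genes were. However, 30 members averaged under 1 CPM over the libraries of the 12 other types, which left little room for a lower call. On the lower side, 0 members had an unadjusted p under 0.05, while the DESeq2 Wald test called 1 lower, LOC121409386. Log2 fold changes of the called members ran from 1.88 to 11.79. The median log2 fold change was 3.82 over the members and 0.01 over all genes tested. Of the members, 40 had 0 counts in at least 1 of the 13 types, where a fitted fold change depends on a small added count. With 0.5 CPM added to each type mean instead, esophagus exceeded the mean of the other types by a median of 1.37 on the log2 scale over the 66 members, and by -0.12 over all 25887 genes.

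LOC121431290 had the largest fold change in esophagus, with 290, 372, 112 and 185 CPM in replicates 1 to 4. Its log2 fold change was 11.79 ± 0.85 (SE), with an edgeR adjusted p of 1.1e-11, and 8.11 on the scale with 0.5 CPM added. All 4 esophagus libraries lay above every other library outside mouth. LOC121414720 followed with 461, 1478, 207 and 112 CPM in the same libraries. It was higher by 11.73 ± 0.85 on the log2 scale (SE, edgeR adjusted p = 3.7e-12), and 8.86 with 0.5 CPM added. Its 4 esophagus libraries overlapped with lantern muscle replicate 3, which stood at 250.5 CPM.

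LOC121428384 reached 1315, 3773, 963 and 1258 CPM in esophagus replicates 1 to 4, the highest level of any member in this type. LOC121431271 gave 1116, 2530, 430 and 583 CPM. The genes with the most reads in mouth were lower there, since LOC121417283 gave 400, 848, 89.3 and 115 CPM and LOC121417672 gave 306, 607, 67.6 and 103 CPM. Replicate 2 was the highest of the esophagus libraries in each of these 4 genes, and it was so for 34 of the 66 members. The most restricted gene, LOC121423355, gave 26.4, 12.7, 0 and 0.580 CPM in esophagus, so it was near or below 1 CPM in the libraries of replicates 3 and 4.

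The esophagus did not carry the whole set. Of the 66 members, 13 reached 10 CPM in every esophagus library and 26 reached 1 CPM in every one, while 24 averaged under 1 CPM. The esophagus mean was between 0% and 23.6% of the mouth mean, with a median of 3.20%. Among the 15 members at 1000 CPM or more in mouth it ran from 0.00644% to 15.1%. Every esophagus library lay above every other library outside mouth for 3 of the 40 members called higher, LOC121425879, LOC121431288 and LOC121431290. The same was so for 34 of the 3011 genes called higher in all, or 0.146% of the genes tested.

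In peristomial membrane, 28 members were called higher, where 12.5% of all genes tested were. No member was called lower, where 3.26% of all genes were, but 31 members averaged under 1 CPM over the libraries of the 12 other types. That left little room for a lower call. On the lower side, 1 member had an unadjusted p under 0.05, and the DESeq2 Wald test called 1 lower, LOC121424681. The called members' log2 fold changes ran from 1.74 to 7.19. The median was 2.12 over the members and -0.01 over all genes tested. With 0.5 CPM added the median difference was 0.92 over the members and -0.02 over all genes. Of the 28, 0 had every peristomial membrane library above every other library outside mouth, as 0.15% of all genes tested did and were called. Without peristomial membrane replicate 1, 18 members were called higher.

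LOC121406593 gave 18.2, 7.86 and 39.9 CPM in peristomial membrane replicates 1, 2 and 3. Against the 12 other types it was higher by 7.19 ± 0.88 on the log2 scale (SE, edgeR adjusted p = 7.3e-08), and 4.86 with 0.5 CPM added. LOC121417178 gave 448, 135 and 229 CPM, and was higher by 6.28 ± 0.65 on the log2 scale (SE, edgeR adjusted p = 7.8e-10), and 6.06 with 0.5 CPM added. The former was highest in replicate 3 and the latter in replicate 1. LOC121426608, whose next type was tube foot, gave 290, 70.8 and 350 CPM in peristomial membrane. Its tube foot libraries gave 162, 363, 217 and 507 CPM, so the ranges of these types overlapped. LOC121412899 rested on a single library, with 56.7, 3.68 and 0 CPM.

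The esophagus and the peristomial membrane were also compared directly in the same fit. Of the 66 members, 7 (10.6%) were called higher in esophagus, where 2.81% of all genes tested were. A further 3 (4.55%) were called lower, a share near the 4.26% of all genes tested. The median log2 difference, esophagus minus peristomial membrane, was 1.62 over the members and 0.05 over all genes. With 0.5 CPM added to each type mean, the medians were 0.69 over the members and -0.04 over all genes. For these 10 genes the libraries of the 2 types did not overlap, which was also so for 79.8% of all genes called higher and 97.2% of all genes called lower (2.24% and 4.14% of all genes tested).

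The 7 higher in esophagus were LOC121431290, LOC121431271, LOC121428384, LOC121414720, LOC121424681, LOC121431288 and LOC121417012, and they included the 5 abundant members that were lowest in mouth replicate 1. LOC121431290 averaged 240 ± 114 CPM in esophagus (SD, n = 4) and 0.275 CPM in peristomial membrane, a log2 difference of 10.04 ± 2.48 (SE, edgeR adjusted p = 0.013). LOC121431271 averaged 1165 CPM and 2.88 CPM, a log2 difference of 8.88 ± 2.30 (SE, edgeR adjusted p = 0.0138). With 0.5 CPM added the differences were 8.28 for LOC121431290, 8.43 for LOC121431271 and 7.17 for LOC121424681. LOC121424681, with 121, 261, 68.9 and 96.7 CPM in esophagus and a mean of 0.453 CPM in peristomial membrane, had the smallest adjusted p (8.41 ± 1.97 SE, edgeR adjusted p = 0.00665). It was the only 1 of the 10 called under all 12 alternative settings of this comparison.

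The 3 lower in esophagus were LOC121406593, LOC121427609 and LOC121426608. LOC121406593 averaged 0.0956 CPM in esophagus, where 2 of the libraries had 0 counts, and 22.0 CPM in peristomial membrane, a log2 difference of -7.55 ± 2.31 (SE, edgeR adjusted p = 0.0388). LOC121427609 gave 0.177, 0.747, 0 and 0 CPM in esophagus and 10.004, 1.72 and 5.21 CPM in peristomial membrane (-4.27 ± 1.28 SE, edgeR adjusted p = 0.0343). LOC121426608 averaged 30.7 and 237 CPM (-2.57 ± 0.78 SE, edgeR adjusted p = 0.0355). With 0.5 CPM added the differences were -5.24 for LOC121406593, -3.07 for LOC121427609 and -2.93 for LOC121426608. All 3 of these calls were lost when any of esophagus replicates 1, 3 or 4 or peristomial membrane replicates 1 or 3 was left out, and a fit of the 2 types alone kept that of LOC121406593 and lost the others. Of the 7 calls in the other direction, 4 remained without peristomial membrane replicate 1, those of LOC121424681, LOC121428384, LOC121431271 and LOC121431290, and that of LOC121424681 alone remained without replicate 2 or without replicate 3.

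**Figure D4:**
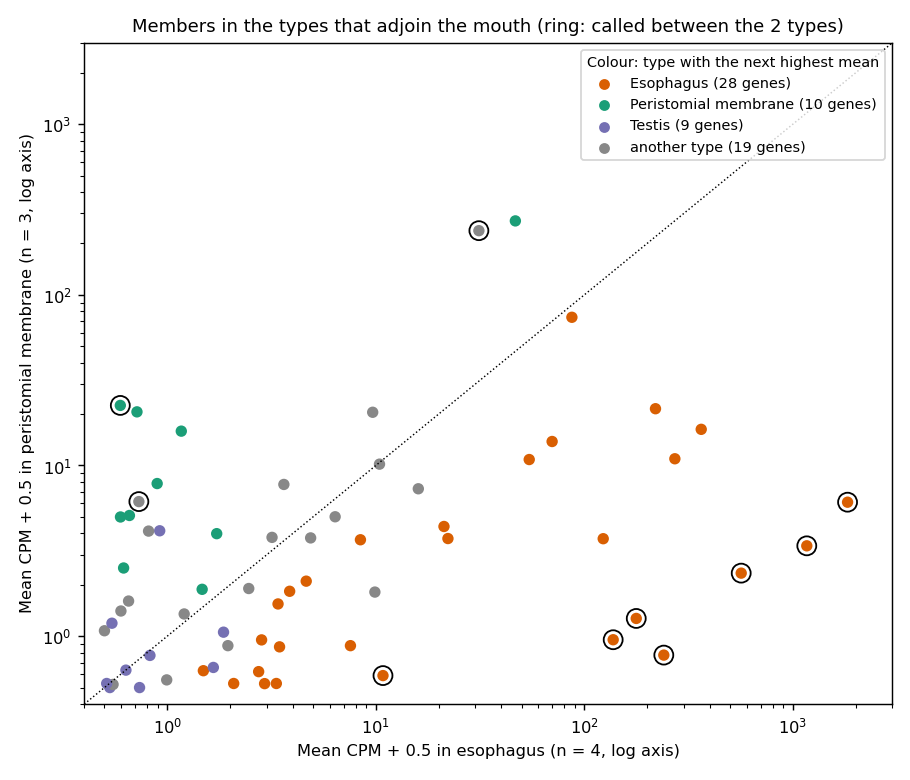
Mean CPM + 0.5 of the 66 members in esophagus (horizontal, 4 libraries) and peristomial membrane (vertical, 3 libraries), both on log axes, coloured by the type with the next highest mean. Rings mark the 10 members called between these types by edgeR, 7 below the dotted line of equal levels and 3 above it.

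In lantern muscle, 24 members were called higher, where 6.52% of all genes tested were. No member was called lower, where 2.16% of all genes were, but 29 members averaged under 1 CPM over the libraries of the 12 other types. That left little room for a lower call. On the lower side, 1 member had an unadjusted p under 0.05, and the DESeq2 Wald test called 1 lower, LOC121415945. Of the members, 2, 14, 15 and 6 reached 10 CPM in lantern muscle replicates 1 to 4. With replicate 2 left out 14 members were called higher, with replicate 3 left out 20, and with both left out 8, the last being a setting chosen after the values had been seen. The median log2 fold change was 1.78 over the members and 0.02 over all genes tested, and with 0.5 CPM added the median differences were 0.57 and -0.01. Of the 24, 0 had every lantern muscle library above every other library outside mouth, where 0.0386% of all genes tested were called and did.

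Lantern muscle replicates 2 and 3 shared 9 members at 10 CPM or more, but several members stood far apart between them. LOC121428384 gave 12.7, 16.9, 1156 and 47.7 CPM in replicates 1 to 4. LOC121431271 gave 6.77, 6.12, 578 and 18.4 CPM, and LOC121414720 gave 2.12, 2.02, 250.5 and 7.05 CPM. In these genes replicate 3, and no other lantern muscle library, lay within the range of the esophagus libraries. LOC121431288 and LOC121431290 stood at 103 and 88.1 CPM in replicate 3, and at 0.586 and 0.195 CPM in replicate 2. Replicate 3 was the highest lantern muscle library for 21 of the 28 members with esophagus next, and for 33 of all 66 members.

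Replicate 2 was the highest for 7 of the 9 members with testis next, and for 26 of all 66 members. LOC121423355 gave 0.177, 55.1, 13.01 and 0.663 CPM in lantern muscle replicates 1 to 4. LOC121406593 gave 0, 27.4, 0.617 and 0 CPM, and LOC121418120 gave 0, 13.3, 0.309 and 0.140 CPM. All 3 were highest in replicate 2, and replicate 3 was under 1 CPM for the latter pair and intermediate for LOC121423355. LOC121417283, with 0.885, 81.5, 106 and 16.6 CPM, was high in both. Whether material of neighbouring tissues in these libraries contributed was not tested.

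LOC121414720 had the largest fold change in lantern muscle, a log2 value of 8.16 ± 0.83 (SE, edgeR adjusted p = 5.9e-09), and 5.50 with 0.5 CPM added. LOC121431290 followed with 7.97 ± 0.84 (SE, edgeR adjusted p = 2.6e-08), and 4.47 with 0.5 CPM added. Both fitted values rested largely on replicate 3. Without it the log2 values were 3.99 (edgeR adjusted p = 0.0048) and 3.60 (edgeR adjusted p = 0.0176), and the lantern muscle means fell from 65.4 to 3.73 CPM for LOC121414720 and from 22.9 to 1.12 CPM for LOC121431290. The rest is a mean of logarithms over types, so these values are large although the plain mean of LOC121431290 was 22.9 CPM in lantern muscle and 21.0 CPM over the 12 other types, among which esophagus held 240 CPM.

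**Figure D5:**
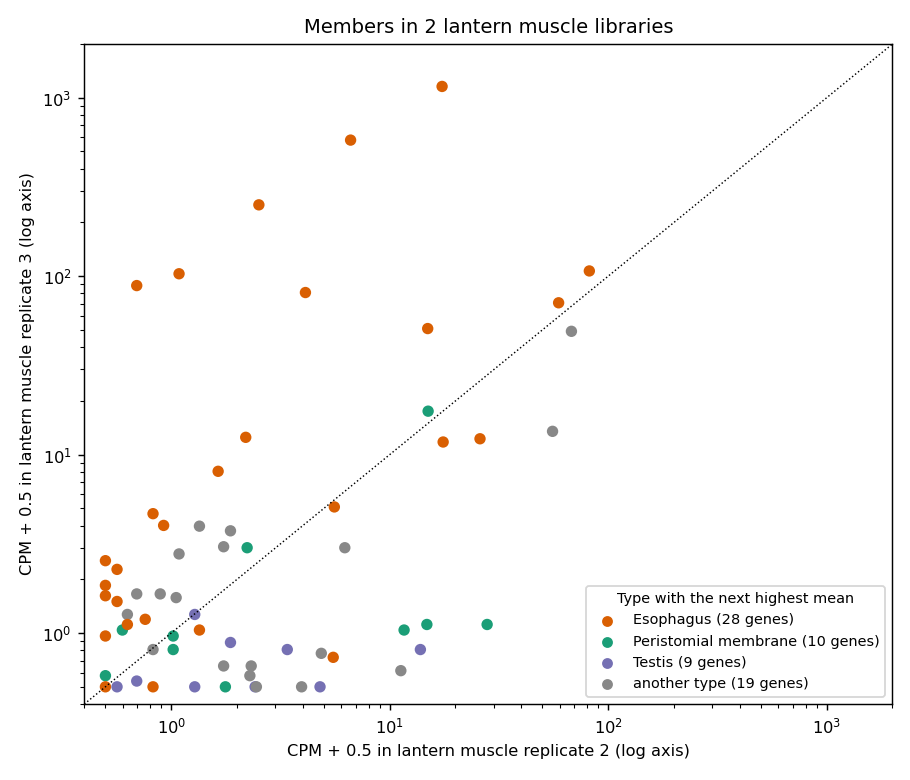
CPM + 0.5 of the 66 members in lantern muscle replicate 2 (horizontal) and replicate 3 (vertical), both on log axes, coloured by the type with the next highest mean. Members with esophagus next lie mostly above the dotted line of equal levels, up to LOC121428384 at 1156 CPM in replicate 3, while LOC121406593 and LOC121418120 lie far below it at 27.4 and 13.3 CPM in replicate 2.

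Members with testis next were near the floor outside mouth. Their testis means ran from 0.435 to 5.21 CPM, and all 9 were highest in testis replicate 4. That library was also the highest in testis for the members as a set. The 66 members took 0.0464% of its counts, against 0.00804%, 0.0140% and 0.0148% in testis replicates 1 to 3. In it 53 members reached 1 CPM, against 19, 19 and 24. LOC121418120 gave 2.55, 2.33, 1.23 and 14.7 CPM in testis replicates 1 to 4, against 370, 202 and 562 CPM in mouth replicates 1 to 3. LOC121412692 gave 0.910, 1.97, 1.34 and 10.5 CPM in testis and 90.0, 121 and 500.4 CPM in mouth. LOC121412940 gave 0.182, 0.404, 0.298 and 0.857 CPM in testis and 20.05, 167 and 88.4 CPM in mouth. The second place of testis therefore rested on values of at most 14.7 CPM, in each gene highest in the same library.

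The members whose next type was tube foot averaged between 7.79 and 312 CPM there, the upper value being that of LOC121426608. LOC121426608 was also read in other types, with a mean of 57.9 ± 25.1 CPM in testis (SD, n = 4), 44.8 ± 21.6 CPM in eggs (SD, n = 4) and 24.3 ± 14.7 CPM in interambulacral plates (SD, n = 4). LOC121431751 was the only member with a count in every one of the 64 libraries. It gave 204, 89.5 and 279 CPM in mouth replicates 1 to 3, and the ovary came next with a mean of 20.5 ± 17.0 CPM (SD, n = 4).

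Some members lay beside each other in the gene order of the RefSeq assembly Lvar_3.0, which was used for neighbours only. There were 6 adjacent pairs, which held 12 members, or 18.2%. Sets chosen by the same rule for the other types had between 0% and 30% of their genes beside another of the set, with 19.3% for the 140 genes of gut and 22.4% for the 98 of tube foot, so the share for mouth was within that range.

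The adjacent pair with the most reads was LOC121429296 and LOC121428985, both with esophagus next. In mouth replicates 1 to 3 the former gave 3205, 1535 and 4892 CPM and the latter 161, 327 and 653 CPM, so their lowest libraries differed. LOC121412989 and LOC121412692, both with testis next, were both lowest in mouth replicate 1, with 12.7 and 90.0 CPM. The peristomial pair LOC121412889 and LOC121412899 was lowest in replicate 2, with 18.1 and 49.1 CPM. LOC121419141 and LOC121418120, also with testis next, had different lowest libraries, as did LOC121431751 and LOC121421531. Over the 8 pairs with at most 1 gene between them, 7 shared the next type and 4 shared the lowest mouth library. Where neighbours are near-identical copies or overlap, reads could have been split between them by the counting, and their separate values are uncertain.

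LOC121431288 and LOC121431290 had a single gene between them, LOC121431289, which is named here after its values were seen. LOC121431289 gave 10.7, 972 and 67.5 CPM in mouth replicates 1 to 3 and averaged 20.1 CPM in esophagus. It met the level and the ratio of the rule, but mouth replicate 1 lay below the esophagus mean. All 3 genes were lowest in mouth replicate 1. The genes with the most reads, LOC121417283 and LOC121417672, had 10 genes between them, and both were lowest in mouth replicate 2.

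The rule did not use the 11 libraries of coelomic fluid, spines, stage 1 ovary and juvenile gonads. Members took between 0.00880% and 0.0544% of counts in them, with a median of 0.0141%, and 51 members were under 10 CPM in all 11. Only 2 members had a library there above their mouth mean. LOC121431193 stood at 61.4 CPM in coelomic fluid, against a mouth mean of 33.0 ± 11.6 CPM (SD, n = 3). LOC121426612 stood at 66.7 CPM in replicate 3 of the juvenile gonads of indeterminate sex, against 29.6 ± 4.74 CPM in mouth (SD, n = 3), while the other 2 libraries of that group gave 0.652 and 0.411 CPM. The same juvenile library held 197 CPM of LOC121426608, where the other 2 gave 32.5 and 46.2 CPM. Coelomic fluid is a single library and has no replicate check, and juvenile libraries were prepared by another provider, so age and provider cannot be told apart.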

How the data were processed

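PolyA RNA was sequenced in 64 bulk libraries. The authors deposited raw counts of reads per gene in a single table. The submitters' processing notes name the tools STAR, featureCounts and DESeq2 but no version of them. Genome build and strand setting were not given in the sources used here. From the table, 3 broken lines were left out and 25887 genes kept, all matched to RefSeq (Lvar_3.0), used for biotype and neighbours only. CPM used column totals, and no pair of libraries held identical counts.

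Tests on the deposited counts used edgeR 4.0.16 (glmQLFit and glmQLFTest, TMM, filterByExpr, R 4.3.3), in 1 fit of 50 libraries over 23341 genes. A run on simulated counts changed genes in esophagus alone, with the same mean over the other types, and did not cover the other comparisons. Mouth libraries stayed out of the fit. Each SE was worked back from the test, as the absolute log2 fold change over the square root of its F statistic, and is approximate. DESeq2 1.42.0, other normalization, no filter, a fit without germ line types and each replicate left out were alternatives.

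The members and lists were chosen with earlier results of these data known. Members named were the 10 highest in mouth, the 10 highest by ratio, neighbours, those at the threshold, the largest called fold changes and the highest in types with 1 library. Others that illustrate a pattern were chosen after their values were seen. Marker lists matched 0 genes, since product names were not analysed here.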

Additional observations from a re-analysis of the deposited data

Results flagged for a closer look

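Groups of 4 libraries were examined for a library whose gap to the nearest other, relative to the group's range, exceeded Dixon's 95% critical value. The share of counts in the mouth-restricted genes was examined in the 11 types with 4 libraries. Named members were examined in esophagus and lantern muscle only, and only where their mean in that type was at least 10 CPM. Of 31 groups, 8 had such a library. Of these, 6 were lantern muscle replicate 3, the highest of its group each time. Its share of counts was 0.265%, and it held 1156 CPM of LOC121428384, 578 CPM of LOC121431271, 250.5 CPM of LOC121414720, 103 CPM of LOC121431288 and 88.1 CPM of LOC121431290. These genes were chosen as members and share libraries, so they do not count as separate events and no chance rate is given. In lantern muscle, LOC121414720, LOC121431288 and LOC121431290 reached a mean of 10 CPM only through replicate 3. Without it their means were 3.73, 2.31 and 1.12 CPM, so a gap was favoured by the choice of groups. Gut replicate 3 had a share of 0.0255%, above the 0.00153% to 0.00439% of the other gut libraries. Esophagus replicate 2 held 3773 CPM of LOC121428384, above 963 to 1315 CPM in the other esophagus libraries. What set these libraries apart was not tested.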

How the results depend on the processing

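The number of members was 66 and became 38 with a margin of 8-fold. It stayed between 55 and 73 under the other settings, which were TMM scaling, other pseudocounts and minimum levels, the stricter rule over single libraries, further types and each mouth replicate left out. The mean share of counts in mouth fell from 11.7% to 7.39% without the 2 most abundant members. With peristomial membrane replicates left out in turn, 18 to 23 members were called higher in that type. In lantern muscle the range was 14 to 25, and 8 with replicates 2 and 3 both left out, a setting added after the data had been seen. Esophagus above peristomial membrane gave 13 members in a fit of those types alone, and 1 to 7 with a replicate left out. Esophagus below peristomial membrane gave 7 with the DESeq2 Wald test, 3 in a fit of those types alone, of which 1 was among the original 3, and 0 to 2 with a replicate left out. Where 0 members were called lower, the Wald test called 1 in each of the 3 types, and the fit without germ line types called 1 in lantern muscle, LOC121431193. For the members with the largest fold changes called in each comparison, the only ones followed for sign, no direction reversed under any setting run. Over all genes tested, these counts moved by more than 1.5 times. Without germ line types, calls higher went from 3011 to 1923 in esophagus and from 2909 to 1905 in peristomial membrane. Calls lower went from 1027 to 668 in esophagus, from 761 to 365 in peristomial membrane and from 505 to 1185 in lantern muscle. With the Wald test the calls lower were 1578, 1415 and 1722 in the same order. With a replicate left out they were as few as 492, 160 and 203, and 82 in lantern muscle without replicates 2 and 3. Between esophagus and peristomial membrane, 655 higher and 995 lower became 1514 and 1582 with the Wald test, 1051 higher in a fit of those types alone, and as few as 190 and 557 with a replicate left out. The cause was not tested. Calls made under every alternative numbered 31 of 40 in esophagus, 13 of 28 in peristomial membrane and 6 of 24 in lantern muscle. Deviations of libraries with the same replicate number had a median correlation of 0.00236 over 289 pairs, from -0.266 to 0.339. With different numbers the median was -0.00243 over 864 pairs. Esophagus with peristomial membrane gave 0.252, 0.0541 and -0.0397 for replicates 1, 2 and 3. A median over all types cannot show whether particular libraries were paired. With the replicate number as a block, 39, 29 and 18 members were called higher in esophagus, peristomial membrane and lantern muscle, and 7 higher and 3 lower between esophagus and peristomial membrane. Levels near 1 CPM rest on few reads, and the number of libraries limits every test.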
